A study of Mus musculus with 4 samples.

Results

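The nuclear genes of the mitochondrial respiratory chain were followed in cultured mouse female germline stem cells treated with spermidine, a natural polyamine. Members were chosen by symbol from the count table: all names beginning with Nduf, Uqcr, Atp5 or Cox4 to Cox8, the succinate dehydrogenase genes Sdha to Sdhd, and Cyc1 and Cycs. A processed pseudogene name (Ndufs5-ps) was left out. This gave 96 genes among 53295 features, of which 32808 carried a symbol. All 4 libraries came from C57BL/6 female germline stem cells at passages over 20, and the labels name no transgene or deletion. The 2 control and the 2 spermidine libraries were made after 4 h, and the sources used here do not give the dose. The labels do not say whether replicates were separate cultures, so the p-values reflect the spread between these libraries alone, and that spread may be technical.

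The respiratory chain sits in the inner mitochondrial membrane. Complex I (NADH dehydrogenase) and complex II (succinate dehydrogenase) pass electrons to ubiquinone, complex III passes them on to cytochrome c, and complex IV (cytochrome c oxidase) hands them to oxygen. Complexes I, III and IV pump protons, and complex V (ATP synthase) uses the proton gradient to make ATP. Most subunits are encoded in the nucleus and imported, while a small core is encoded in mitochondrial DNA, and complex II is wholly nuclear.

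The libraries were of unequal depth, with 7206176 and 7128901 counts in the controls against 787600 in spermidine replicate 1 and 1718944 in spermidine replicate 2. A single row (AY036118, a ribosomal RNA related transcript) took 1.64% to 1.68% of control counts and 29.6% to 30.7% of spermidine counts. Levels are given as CPM, the counts scaled to library size with TMM factors. Across genes, log2 CPM correlated at 0.969 between the controls and at 0.732 between the spermidine libraries. Spermidine replicate 1 stood apart, with counts on 848 of 1277 gene models of olfactory and vomeronasal receptors, which these cells should lack, against 21 to 121 in the other libraries. The cells are labelled female germline stem cells, but of their defining markers Ddx4, with 434 own bases, had 1 count in all 4 libraries together and Tfap2c, with 1165, had none (own bases are those that no other transcript row covers). Nanos3 could not be measured, with 12 own bases. Summed CPM of the 11 germline markers was 291 and 276 in the controls and 172 and 338 with spermidine, a sum that joins opposite moves. Tex19.1 fell (283 and 256 CPM against 41.2 and 17.8), while Dppa3, Mael and Ifitm3 rose, so that of 4 tested germline markers 3 were called higher and 1 lower. Dppa3 and Mael passed the filter on low counts through spermidine alone, with at most 3 counts in either control.

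Of the 96 genes, 65 passed the filter on low counts and were tested, none of them with under 10 counts in both controls. The threshold of the filter is scaled to library size. Ndufaf6 reached it in both spermidine libraries but, of the controls, only in replicate 1, so it passed through its spermidine counts. Reads that overlap several transcript rows were left out of the table, so a gene is counted only on its own bases. Of the 31 untested genes, 23 had under 300 own bases, and 9 of the 31 had no count in any library. The catalytic iron-sulfur subunits Ndufs1 of complex I, with 52 own bases, and Sdhb of complex II, with 16, could not be measured for this reason. A gene with no count here is not shown to be silent.

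After spermidine, 3 of the 65 tested genes fell and none rose. They were Cycs (cytochrome c, the mobile carrier between complexes III and IV), Ndufaf4 (a complex I assembly factor) and Sdhd (a membrane anchor of complex II). Called means an adjusted p under 0.05 in the edgeR quasi-likelihood F-test, Benjamini-Hochberg adjusted over all 7836 tested genes. Of all tested genes 28.8% were called. The 3 lower calls are 4.62% of the members, beside a background of 3.99% of all tested genes. The count of 0 higher calls stands beside a background of 24.8%. That background includes genes with under 10 counts in both controls, which passed the filter through spermidine alone, and no member was of this kind. The members are therefore not set against a like group of genes here. At an unadjusted p under 0.05, 4 members were lower and 0 higher in edgeR. DESeq2 called 4 lower (background 4.87%) and 0 higher (23.3%), and limma-voom 3 lower (3.76%) and 0 higher (21.2%).

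The remaining tested genes did not pass the test, and their fitted values leaned to the lower side mainly through 1 library, spermidine replicate 1. The log2 fold change was below 0 for 53 of the 65 genes, against 45.7% of all tested genes. The median member had -0.58 and the median of all tested genes was 0.23; members ran from -2.30 for Cycs to 1.22 for Ndufaf6. Without spermidine replicate 1 the members' median was -0.070. Among genes with at least 100 counts in each control, a choice that favours genes lower with spermidine, the order turned, with a median of -0.59 for 57 members and -0.80 for all 3163 such genes. At least 2-fold lower were 13 of the 65 members (20%), near the share of 22.4% of all genes. Both spermidine libraries lay below both controls for 24 of 65 members, against 29.6% of all genes. Both lay above for 1 member, Ndufaf6, against 36.6% of all genes, a share that includes genes that passed the filter through spermidine alone. In bulk RNA, fewer cells of a type and less RNA per cell cannot be told apart.

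**Figure D1:**
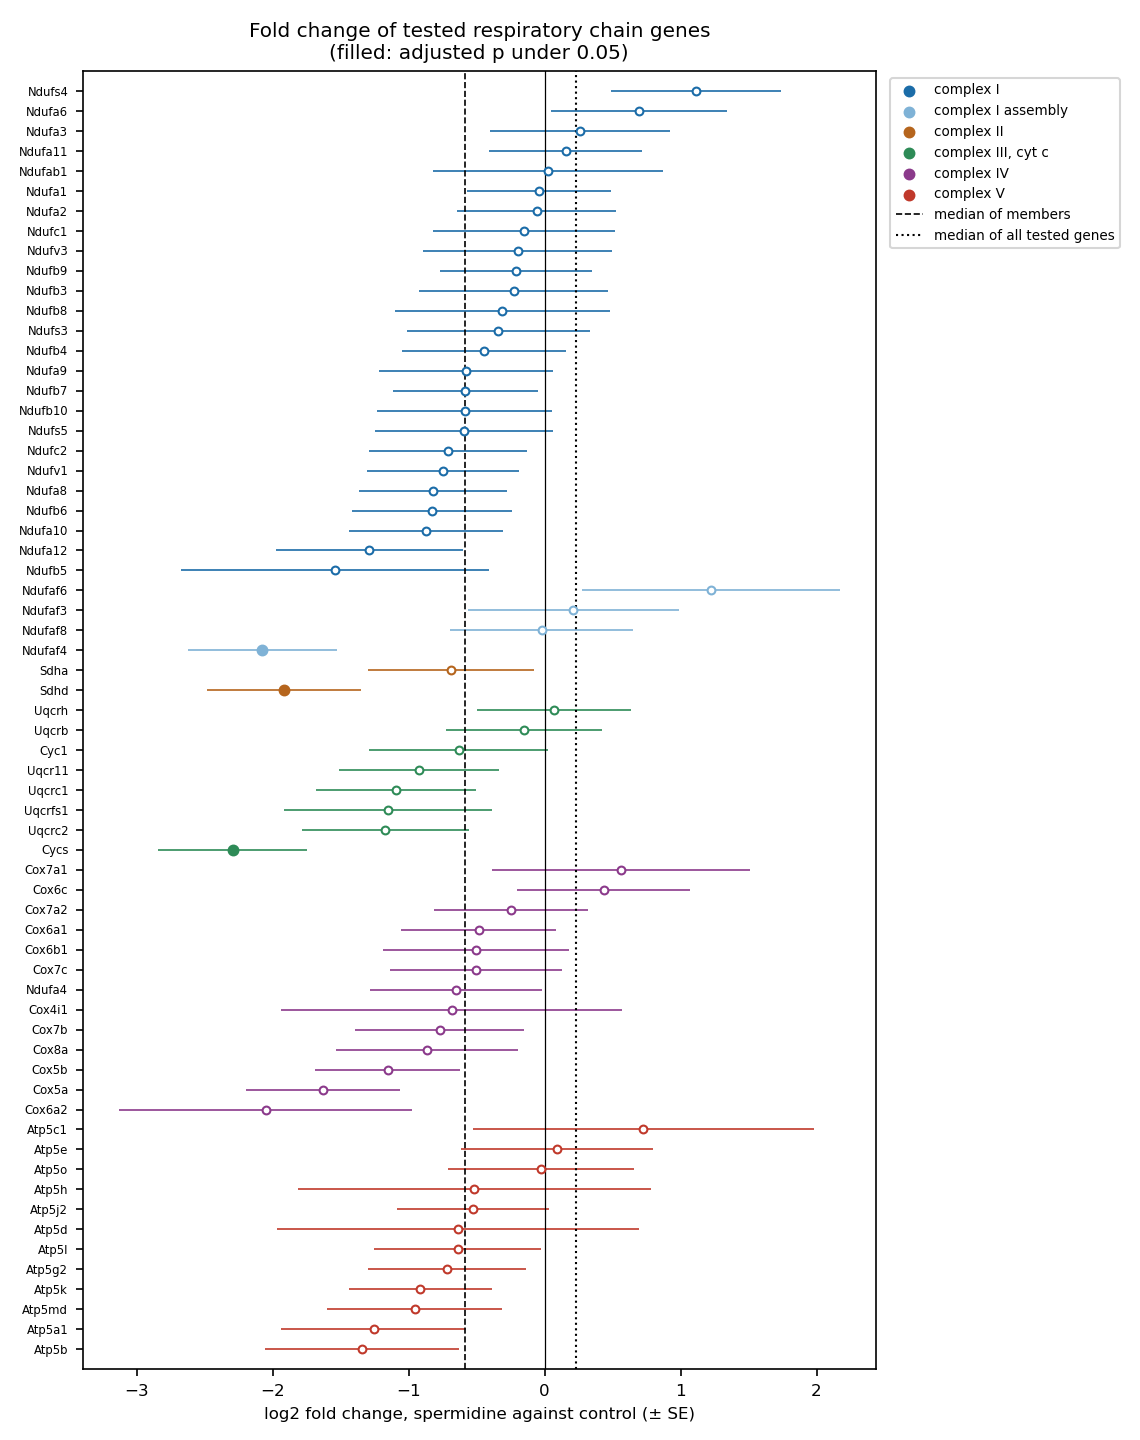
Log2 fold change of tested members by name, spermidine against control, with its standard error (n = 2 libraries per group), ordered within each complex. Filled points passed the test (Cycs, Ndufaf4 and Sdhd); the dashed line is the members' median of -0.58 and the dotted line the median of all tested genes, 0.23.

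Cycs stood at 685 and 617 CPM in the controls and at 164 and 103 CPM with spermidine. Both spermidine libraries lay well below both controls, at 25.1% and 15.9% of the control mean. The log2 fold change was -2.30 ± 0.55 (SE, n = 2 per group; edgeR quasi-likelihood F-test, Benjamini-Hochberg adjusted p = 0.0131). Cycs lies at chr6:50562563-50566569 (GRCm38) and rested on 4725 and 4263 control counts and 143 and 145 spermidine counts. The mouse genome holds processed copies of Cycs, and the sources used here do not say how reads matching several places were counted.

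Ndufaf4 (chr4:24898083-24905001) stood at 205 and 172 CPM in the controls and at 49.2 and 40.6 CPM with spermidine. The groups did not overlap, and the spermidine values were close to each other. The log2 fold change was -2.08 ± 0.55 (SE, n = 2 per group; edgeR quasi-likelihood F-test, Benjamini-Hochberg adjusted p = 0.0207). Of its 43 counts in spermidine replicate 1, about 11.6 would come from the background measured on the receptor gene models of that library.

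Sdhd (chr9:50596340-50603849) stood at 443 and 336 CPM in the controls and at 69.8 and 135 CPM with spermidine. Both spermidine libraries lay below both controls, replicate 1 further than replicate 2, at 17.9% and 34.5% of the control mean. The log2 fold change was -1.92 ± 0.56 (SE, n = 2 per group; edgeR quasi-likelihood F-test, Benjamini-Hochberg adjusted p = 0.0331). All 3 calls were lost without control replicate 1 (adjusted p 0.176 for Cycs, 0.282 for Ndufaf4 and 0.324 for Sdhd), without control replicate 2 (0.129, 0.174 and 0.186) and without spermidine replicate 1 (0.0538, 0.0718 and 0.0903), while the log2 fold change stayed between -2.66 and -1.94 for Cycs, -2.21 and -1.86 for Ndufaf4 and -2.43 and -1.53 for Sdhd. All 3 were also lost when every gene with a count was tested (0.267, 0.267 and 0.302) and when 1 CPM was required in all 4 libraries (0.0594, 0.0841 and 0.0874), and with the controls thinned to spermidine depth Cycs was kept (0.0487) while Ndufaf4 (0.0765) and Sdhd (0.0743) were not, as with a replicate block (Cycs 0.0429, Ndufaf4 0.0591, Sdhd 0.0877).

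The next gene in order of p was Cox5a, a nuclear subunit of cytochrome c oxidase, which was singled out after its values were seen. It stood at 614 and 462 CPM in the controls and at 114 and 231 CPM with spermidine. All 3 genes called lower and Cox5a had both spermidine libraries below both controls. For Cox5a the log2 fold change was -1.63 ± 0.57 (SE, n = 2 per group; edgeR quasi-likelihood F-test, Benjamini-Hochberg adjusted p = 0.0619), and DESeq2 called it.

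The promoters of the 3 genes that fell are shown because respiratory chain genes are textbook targets of NRF1, of ETS family factors (NRF2, also called GABP) and of YY1. Each is the 250 bases upstream of the transcription start, 5′ to 3′ on the gene's strand, from RefSeq (GRCm38.p6). Capitals mark matches to the NRF1 motif (GCGC, any base, then TGCGC) or the ETS motif CCGGAAG on either strand. The positions are chr6:50566570-50566819 (minus strand) for Cycs, chr4:24897833-24898082 (plus strand) for Ndufaf4 and chr9:50603850-50604099 (minus strand) for Sdhd.
Cycs: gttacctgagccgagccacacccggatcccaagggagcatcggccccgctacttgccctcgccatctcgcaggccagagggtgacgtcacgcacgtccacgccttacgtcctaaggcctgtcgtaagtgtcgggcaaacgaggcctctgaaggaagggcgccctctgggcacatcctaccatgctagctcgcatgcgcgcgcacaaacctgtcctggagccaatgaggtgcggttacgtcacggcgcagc
Ndufaf4: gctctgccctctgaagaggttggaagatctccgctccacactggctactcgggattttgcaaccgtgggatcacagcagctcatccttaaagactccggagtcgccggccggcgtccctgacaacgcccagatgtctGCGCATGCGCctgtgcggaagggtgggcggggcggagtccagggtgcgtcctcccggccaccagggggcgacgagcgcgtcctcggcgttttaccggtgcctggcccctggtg
Sdhd: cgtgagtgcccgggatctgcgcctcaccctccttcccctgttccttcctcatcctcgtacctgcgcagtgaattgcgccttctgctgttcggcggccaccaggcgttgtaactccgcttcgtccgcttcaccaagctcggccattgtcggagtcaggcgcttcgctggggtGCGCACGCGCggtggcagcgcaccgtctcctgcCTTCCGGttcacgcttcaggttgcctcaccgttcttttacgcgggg
Ndufaf4 held 1 NRF1 match. Sdhd held 1 NRF1 match on the opposite strand and 1 ETS match, also on the opposite strand. Cycs held none in this window, which says only that these letters are not there. Only exact matches were marked, and the stretch tcgcatgcgc in the Cycs window differs from the NRF1 motif in 1 base. The YY1 motif AAGATGGC was in none of the 3.

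Across the chain, 78 of the 96 genes had a RefSeq promoter window, 83 windows in all. The NRF1 motif was in 18.1% of them, against 3.74% of 32851 windows of all genes. The ETS motif was in 16.9%, against 6.91%, and the YY1 motif in 1.2%, against 1.56%. At least 1 of the 3 was in 31.3% of member windows and 11.4% of all. Both strands were searched, and the base composition of the windows was not matched. A match is a description of the sequence, not of binding.

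Complex I had 26 of 37 genes tested and no call, with a median log2 fold change of -0.39. Both spermidine libraries lay below both controls for 8 of the 26, near the share of 29.6% over all tested genes. Summed CPM of its genes was 4648 and 4401 in the controls and 1965 and 4835 with spermidine, so spermidine replicate 1 was the lowest library and replicate 2 the highest. By module, the median was -0.20 for the NADH-oxidising N module (5 of 8 tested), -0.39 for the ubiquinone-reducing Q module (4 of 8 tested) and -0.44 for the proton-pumping membrane arm (17 of 21 tested). Ndufv1, which holds the flavin that accepts electrons from NADH, had a log2 fold change of -0.75 ± 0.56 (SE, n = 2 per group).

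Ndufb7 and Ndufb9, membrane arm subunits, had the most counts per kilobase of own bases in complex I. Ndufb7 had a log2 fold change of -0.58 ± 0.53 and Ndufb9 of -0.21 ± 0.56 (SE, n = 2 per group). Neither passed the test. The highest value in complex I was that of Ndufs4, an accessory subunit of the N module, at 100 and 73.9 CPM without and 92.6 and 280 CPM with spermidine. Only spermidine replicate 2 lay outside the control range for Ndufs4, and its log2 fold change of 1.11 ± 0.63 had an adjusted p of 0.219 by the Benjamini-Hochberg adjusted edgeR F-test. Ndufs4 was singled out after its values were seen.

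Among the 8 complex I assembly factors of the Ndufaf names, 4 were tested and Ndufaf4 was the only one called. Ndufaf8 had a log2 fold change of -0.02 ± 0.67 (SE, n = 2 per group), with a sign that turned with RLE and upper-quartile scaling. Ndufaf6 rested on 20 and 6 control counts and 5 and 5 spermidine counts, too few to set a level, and did not pass the test (1.22 ± 0.95).

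Complex II could be followed through 2 of its 4 subunits. Sdha, the flavoprotein that oxidises succinate, stood at 702 and 617 CPM in the controls and at 212 and 603 CPM with spermidine. Replicate 1 was far below the controls and replicate 2 only just below them. The log2 fold change of -0.69 ± 0.61 (SE, n = 2 per group) had an adjusted p of 0.434 by the Benjamini-Hochberg adjusted edgeR F-test. Whether Sdha and Sdhd differed in their response was not tested.

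Complex III and cytochrome c had 8 of 10 genes tested, with a median log2 fold change of -1.01 and both spermidine libraries below both controls for 5 of them. The share below both controls was 29.6% over all tested genes. For the 7 tested complex III subunits alone the median was -0.92. Uqcrfs1, the Rieske iron-sulfur protein, stood at 409 and 330 CPM in the controls and at 42.3 and 285 CPM with spermidine. The spermidine libraries differed from each other more than replicate 2 differed from the controls, and the log2 fold change of -1.15 ± 0.77 (SE, n = 2 per group) did not pass the test. Cyc1, the haem protein that hands electrons to cytochrome c, had -0.63 ± 0.66. Uqcr11 and Uqcrh, small subunits with the most counts per kilobase in the complex, had -0.92 ± 0.59 and 0.07 ± 0.57, and the sign for Uqcrh turned with limma-voom, with a replicate block and without a filter.

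Complex IV had 13 of 20 genes tested and no call, with a median of -0.65. All 11 of its generally expressed genes were tested. Cox8a and Cox6a1 had the most counts per kilobase. Cox8a stood at 697 and 489 CPM in the controls and at 134 and 513 CPM with spermidine, and Cox6a1 at 552 and 555 CPM against 236 and 553 CPM. In both genes replicate 1 was the low library and replicate 2 was at about the control level. Their log2 fold changes were -0.87 ± 0.67 and -0.48 ± 0.57 (SE, n = 2 per group).

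Several complex IV subunits exist as a general form and a form restricted to muscle, lung or testis, and the general forms prevailed in all 4 libraries where both could be measured. Cox6a1 stood at 1036 and 1042 CPM per kilobase of own bases in the controls, and its heart and muscle partner Cox6a2 at 25.6 and 32.9. With spermidine Cox6a1 stood at 442 and 1038 and Cox6a2 at 15.5 and 1.21 CPM per kilobase. Cox6a2 had 104 and 134 control counts and 8 and 1 spermidine counts, and its log2 fold change of -2.05 ± 1.08 had an adjusted p of 0.189 by the Benjamini-Hochberg adjusted edgeR F-test. Cox7a2 stood at 354 and 240 CPM per kilobase in the controls and at 156 and 341 with spermidine. Its heart and muscle partner Cox7a1 stood at 8.31 and 18.2 in the controls and at 6.25 and 29.2 with spermidine. Their log2 fold changes were -0.25 ± 0.57 and 0.56 ± 0.95 (SE, n = 2 per group), and neither passed the test.

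The other restricted forms were near or at 0 counts, except Cox7b2 in spermidine replicate 1. In that library Cox7b2 stood at 31.6 CPM per kilobase of own bases and its general partner Cox7b at 81.1. With the controls given first and then spermidine replicate 1 and replicate 2, the lung form Cox4i2 had 0, 3, 5 and 0 counts, with 4.87 expected from background in spermidine replicate 1. The testis forms Cox6b2 and Cox7b2 had 0, 0, 0 and 2 counts and 0, 0, 15 and 0 counts, with 1.73 expected from background for Cox7b2 in spermidine replicate 1. Cox8b, the muscle form, had 1 count in all and Cox8c, a testis form, had none. Cox6b1, the general partner of Cox6b2, had a log2 fold change of -0.50 ± 0.68 (SE, n = 2 per group). Ndufa4, a subunit of complex IV despite its name, had -0.65 ± 0.63, while Ndufa4l2, its hypoxia-induced relative, had 1, 0, 3 and 0 counts. Cox4i1, the general partner of Cox4i2, had only 115 own bases and 29, 32, 6 and 0 counts (-0.68 ± 1.26), and Cox7a2l had 2, 2, 1 and 0 counts, so no level could be set for either.

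Complex V held the genes with the highest levels of the chain. Atp5b and Atp5a1 encode the catalytic beta subunit and the alpha subunit of the F1 head. Atp5b stood at 4780 and 3801 CPM in the controls and at 795 and 2580 CPM with spermidine, and Atp5a1 at 3641 and 2713 CPM against 685 and 1971 CPM. Both genes were below both controls in each spermidine library, replicate 1 by more than replicate 2. Their log2 fold changes were -1.34 ± 0.72 and -1.26 ± 0.68 (SE, n = 2 per group), with adjusted p of 0.196 and 0.203 by the Benjamini-Hochberg adjusted edgeR F-test. Leaving out 1 library moved them from -2.38 to -0.73 and from -2.16 to -0.69, and both were called without spermidine replicate 2 (adjusted p 0.000882 and 0.00179 in the edgeR test).

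Of the 17 complex V genes 12 were tested, with a median log2 fold change of -0.64 and no call. The median was -0.64 over the 5 F1 subunits and -0.58 over the 6 tested stalk and membrane subunits. The F1 median was the value of Atp5d (SE 1.33), which had only 23 and 16 control counts and 4 and 0 spermidine counts. Atp5c1, also of F1, had 5 and 37 control counts and 9 and 2 spermidine counts, so the F1 median is weakly set. The c ring, which turns as protons pass, is encoded by 3 genes for 1 mature protein. Atp5g2 had a log2 fold change of -0.72 ± 0.58 (SE, n = 2 per group). Atp5g1 had 5, 9, 0 and 0 counts and Atp5g3 had 2, 2, 1 and 0 counts on 10 own bases, so these 3 could not be ranked.

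Ranked per kilobase of own bases, Atp5b led in the controls at 2544 and 2023 CPM per kilobase, above Atp5a1 at 1569 and 1169. Cox8a followed at 1279 and 897, then Cox6a1 at 1036 and 1042, Cox5b at 1058 and 1016, and Atp5j2 at 1048 and 890. Within each control Atp5b was first and Atp5a1 was next, while the order of Cox8a, Cox6a1, Cox5b and Atp5j2 differed between the controls. Over both controls the values of Atp5b lay above all others, and those of Atp5a1 overlapped with Cox8a. Own bases are only part of most transcripts, so these ranks describe the counted stretches.

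Spermidine replicate 1 lay below both controls for 57 of the 65 members, against 41.1% of all tested genes. Spermidine replicate 2 lay below both controls for 27 of 65, against 45% of all tested genes, and above both for 22, against 46.5%. Replicate 2 was higher than replicate 1 in 56 of 65 members, against 47.5% of all tested genes. The median member stood at 35.1% of its control mean in replicate 1 and at 95.3% in replicate 2.

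**Figure D2:**
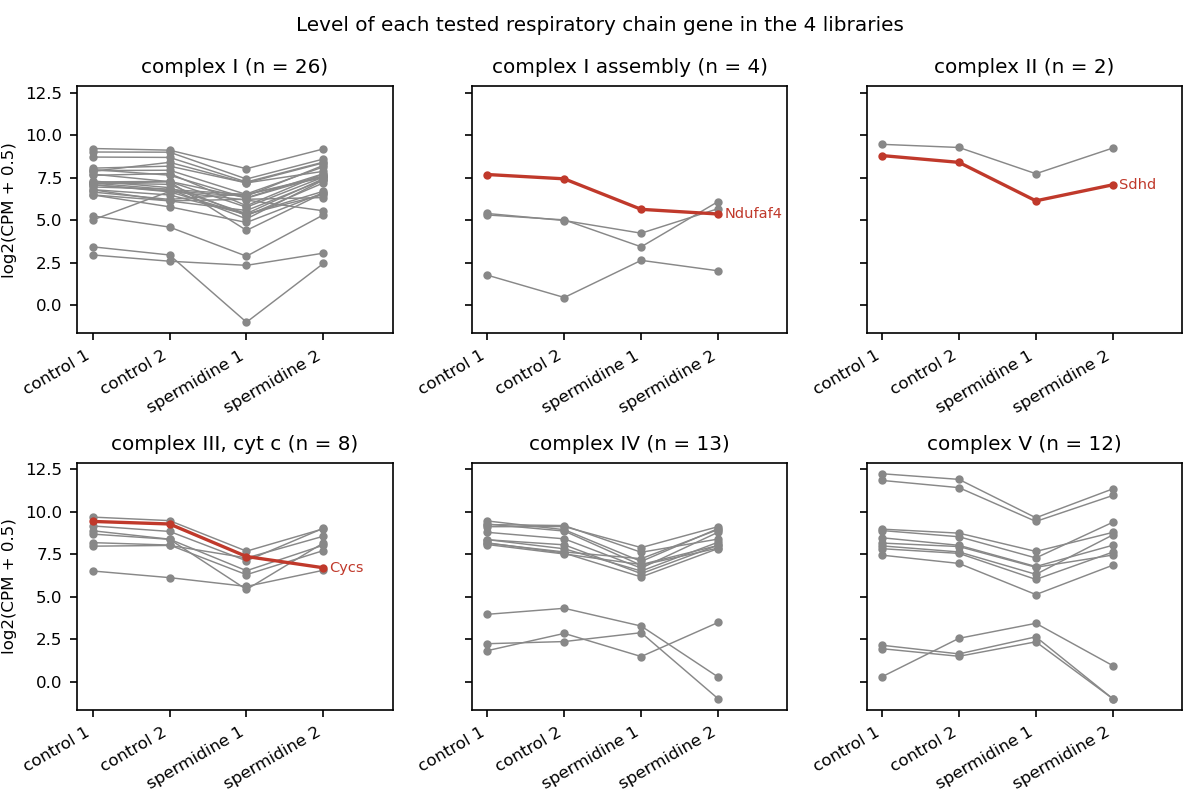
Level of each of the 65 tested members in the 4 libraries, 1 panel per complex, as log2 CPM (a pseudocount of 0.5 is added for drawing); each line joins the values of 1 gene, and red marks the 3 genes that fell. Most lines dip in spermidine replicate 1 and return in replicate 2, whereas Cycs, Ndufaf4 and Sdhd are among the 24 genes that stay below both controls in both; Atp5b and Atp5a1 are the top lines of complex V.

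Among the 57 members with at least 100 counts in each control, the medians were 33.3% and 95.6%. The 3163 genes of the whole table chosen by the same control counts, which favours genes that are lower with spermidine, had medians of 44.6% and 65.3%. Replicate 2 was higher than replicate 1 in 53 of the 57 members and in 68.3% of those genes. Replicate 1 lay below both controls for 54 of the 57 (80.6% of those genes), and replicate 2 for 23 of the 57 (65.9%). The 4 members that were not higher in replicate 2 than in replicate 1 were Cox6a2, Cycs, Ndufv3 and Ndufaf4, which include 2 of the 3 genes that fell.

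**Figure D3:**
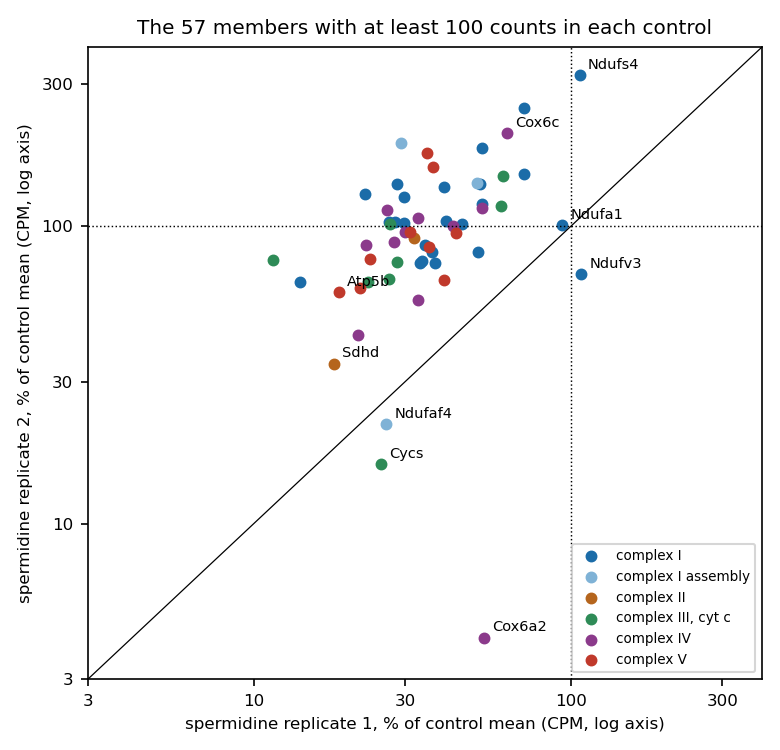
Each point is a member with at least 100 counts in each control (57 genes), plotted by its CPM as a percent of the control mean in spermidine replicate 1 (horizontal, log axis) and in spermidine replicate 2 (vertical, log axis). Most points lie above the diagonal; Cycs (25.1% and 15.9%) and Ndufaf4 (26.1% and 21.6%) lie below it.

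A fit that leaves out 1 library takes its spread from the group that still has 2, and assumes that the lone library varies like them. Leaving out spermidine replicate 2, so that the spread came from the controls, gave 36 members lower (55.4%, against a background of 15.4% of all tested genes), 0 higher (32.1%) and a median log2 fold change of -1.46. Leaving out spermidine replicate 1 gave 0 called members, beside backgrounds of 0.408% lower and 5.77% higher, and a median of -0.070, with 7 lower and 2 higher at an unadjusted p under 0.05. The 36 calls were spread over the chain, with 11 in complex I, 1 among its assembly factors, 2 in complex II, 6 in complex III with cytochrome c, 8 in complex IV and 8 in complex V. Without control replicate 1 no gene at all was called, and without control replicate 2 no member was (background 0.868% lower and 18.4% higher). In levels, which need no such assumption, the median member was far below its control mean in spermidine replicate 1 only, the library with the fewest counts. The size of that gap depends on the TMM factors, 1.30 for spermidine replicate 1 and 0.824 for replicate 2.

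Counted together, the 96 genes took 2.64% (2.62 to 2.65) and 2.16% (2.15 to 2.17) of nuclear protein-coding counts in the controls. They took 1.45% (1.41 to 1.49) in spermidine replicate 1 and 2.42% (2.40 to 2.45) in replicate 2. Spermidine replicate 2 lay between the controls and replicate 1 below both, so the groups overlapped. The ranges in brackets are 95% exact Clopper-Pearson intervals and cover counting error only.

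The 13 subunits encoded in mitochondrial DNA were measured in the same libraries. All were tested and none was called, beside 28.8% of all tested genes, with a median log2 fold change of -0.33. They took 5.36% and 3.76% of protein-coding counts in the controls and 6.5% and 4.33% with spermidine, with overlapping groups. The ratio of their counts to those of the nuclear members was 2.15 and 1.81 in the controls, 4.80 in spermidine replicate 1 and 1.87 in replicate 2. Only spermidine replicate 1 stood outside the others. For COX1, the catalytic subunit of complex IV, CPM was 14995 and 10196 in the controls and 6893 and 9756 with spermidine (log2 fold change -0.60 ± 0.72, SE, n = 2 per group).

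**Figure D4:**
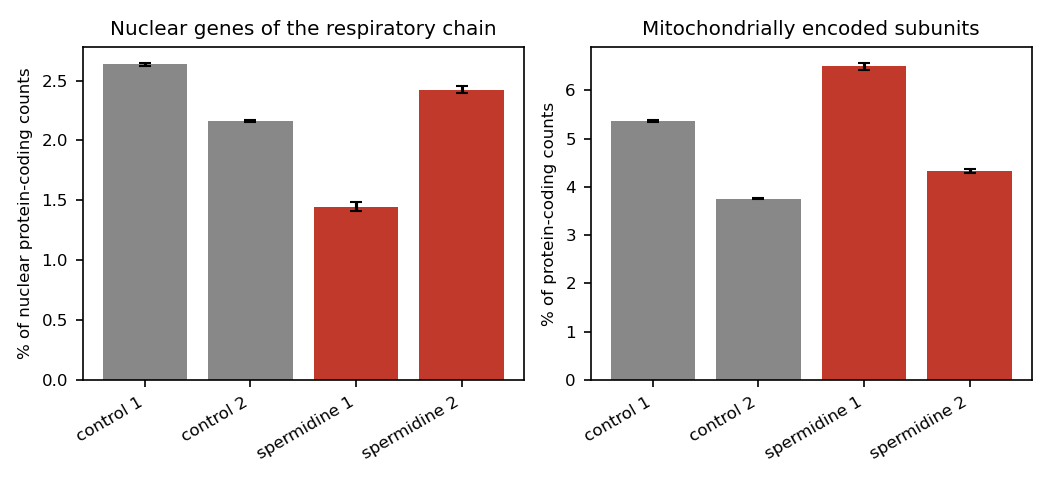
Share of nuclear protein-coding counts taken by the 96 nuclear members (left) and share of protein-coding counts taken by the 13 mitochondrially encoded subunits (right), in percent, for each library, with 95% exact intervals of counting error. Spermidine replicate 1 is the lowest library on the left (1.45%) and the highest on the right (6.5%).

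Genes that build or feed the chain were taken from further lists. The background for each list is 3.99% of all tested genes called lower and 24.8% called higher. Of 46 assembly factors outside the name rule, 28 were tested, 3 fell and 1 rose, with a median log2 fold change of -0.33. Lrpprc, which stabilises mitochondrial mRNAs, had 1847 and 1208 control counts and 33 and 55 spermidine counts (log2 fold change -2.52 ± 0.57, adjusted p = 0.0110 by the Benjamini-Hochberg adjusted edgeR F-test). Cox15, which makes the haem A of complex IV, had 1947 and 1766 against 50 and 103 counts (-2.03 ± 0.53, adjusted p = 0.0196 in the same edgeR test). Coa5, a complex IV assembly factor, had 2844 and 2288 against 58 and 190 counts (-1.86 ± 0.57, adjusted p = 0.0375 in the same edgeR test). In these 3 genes both spermidine libraries lay below both controls after scaling. Cox20, a chaperone of the complex IV subunit COX2, had 5 and 11 against 24 and 7 counts (3.64 ± 1.10, adjusted p = 0.0357 in the same edgeR test), and limma-voom did not call it (adjusted p = 0.0955). Cox20 passed the filter, whose threshold is scaled to library size, through spermidine alone, so a lower call was hardly possible for it. All 4 calls were lost without control replicate 1 (adjusted p 0.230 to 0.327 in the edgeR test), without control replicate 2 (0.0665 to 0.210) and without spermidine replicate 1 (0.0724 to 0.130).

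The tricarboxylic acid cycle and pyruvate dehydrogenase list, which supplies the electrons, had 13 of 18 genes tested, none called and a median of -1.21. Of 12 membrane carriers 10 were tested, with a median of -0.86, and Slc25a5, an ADP/ATP exchanger, fell. It had 17056 and 13102 control counts and 290 and 984 spermidine counts (-2.08 ± 0.62, adjusted p = 0.0343 by the Benjamini-Hochberg adjusted edgeR F-test). The call was lost without control replicate 1 (adjusted p 0.316 in the edgeR test), control replicate 2 (0.230) or spermidine replicate 1 (0.0839). Of 20 genes of ubiquinone synthesis and other electron inputs 7 were tested, with no call and a median of 0.26.

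Of 14 regulators of mitochondrial gene expression, 9 were tested, with a median of -1.25, and 1 rose. This was Ppargc1a, the coactivator PGC-1 alpha, with 0 and 1 control counts and 15 and 8 spermidine counts, a ratio of 139 (95% counting interval 22.6 to 5741) and an adjusted p of 0.00806 by the Benjamini-Hochberg adjusted edgeR F-test. In spermidine replicate 1 the receptor models put the expected background at 14.8 counts, so its 15 counts were at the background level. The ratio and its interval include those counts, and beyond background the rise rests mainly on the 8 counts of spermidine replicate 2. Ppargc1a passed the filter through spermidine alone. The call was lost without control replicate 1 (adjusted p 0.0930 in the edgeR test) or spermidine replicate 1 (0.0585). Tfam, the packaging factor of mitochondrial DNA, had 341 and 270 control counts and 12 and 26 spermidine counts and did not pass the test (-1.43, adjusted p = 0.152 in the same edgeR test). Tfam was singled out after its values were seen.

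Markers of other cell types moved with the groups in the same libraries. Summed CPM of 12 granulosa and theca markers was 162 and 134 in the controls and 2332 and 7016 with spermidine (7 of 8 tested higher). For 8 fibroblast and stroma markers it was 71.3 and 133 against 2067 and 10934 (5 of 7 higher), and for 11 oocyte markers 1.45 and 2.60 against 170 and 2304 (5 of 5 higher). For 8 surface epithelium markers it was 0.435 and 0.868 against 122 and 281 (5 of 5 higher), and for 6 endothelial markers 1.45 and 0.579 against 105 and 117 (3 of 3 higher). For 12 haematopoietic markers it was 1755 and 1248 against 185 and 79.0 (4 of 4 tested lower). Of all tested genes 24.8% were called higher and 3.99% lower. The tested oocyte, surface epithelium and endothelial markers all had under 10 counts in each control. They passed the filter through spermidine alone, so a lower call was hardly possible for them. Some of the granulosa, theca and stroma markers also passed in this way. Spi1, a haematopoietic factor with 407 own bases, was at 0 in all 4 libraries. Amh, Nr5a1, Zp2, Nobox, Nlrp5, Pecam1, Cdh5, Tek, Fcer1a and Lyl1 also had no count, but each had under 300 own bases, so their zeros do not show absence. Their part in the values of the respiratory chain genes was not tested.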

How the data were processed

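DNase-treated RNA was enriched for mRNA and sequenced in paired-end mode, per the labels, which name kits of 2 makers without saying which library used which. The submitters' processing notes name HISAT2, DESeq2 and mm9, without roles; the counting program is not named. The authors deposited raw whole-number counts for 106519 RefSeq transcript rows with exon positions. Through RefSeq, 86032 rows (80.8%) matched a symbol; 88.5% of these lay inside the gene's GRCm38 span, so positions are given as GRCm38. Rows were summed per gene, and unmatched rows were kept as features (1.15% to 4.47% of counts).

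Genes were filtered with filterByExpr by group (a count minimum of 10, 15 in total). The minimum of 10 is scaled to the median library size, so a spermidine library passed it on fewer counts than a control did. Ndufs7 (12 and 13 control counts, 11 and 1 spermidine counts) was not tested, while Gabpb1 (13 and 8, 5 and 4) was. Counts were normalised with TMM (factors 0.961, 0.973, 1.30 and 0.824 for control 1 and 2 and spermidine 1 and 2). They were tested with edgeR 4.0.16 (glmQLFit, glmQLFTest) in R 4.3.3, with a model of group alone (2 residual degrees of freedom), adjusted by Benjamini-Hochberg over all tested genes. Where another test is named it is DESeq2 1.42.0 or limma-voom (limma 3.58.1). The procedure was tested on simulated data. The simulation gave every library the same spread per gene, so it did not cover the unequal spread and background of these libraries. Background was the count per kilobase of own bases on olfactory and vomeronasal receptor gene models. A floor of 3 counts is 0.434 to 3.43 CPM. An exact test of 2 libraries against 2 cannot go below p = 0.333.

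The members, lists, rules and tests were chosen with earlier results of these data known. Genes named were the called members, the 2 members per complex with the most counts per kilobase of own bases over the 4 libraries (at least 300 own bases), isoform pairs, catalytic subunits and up to 4 called genes per pathway list; exceptions are stated, and 1 gene under this rule is not reported here.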

Additional observations from a re-analysis of the deposited data

How the results depend on the processing

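The count of members called lower was 3. It was 0 without a filter (5 had an unadjusted p under 0.05; 0 of all 29024 genes were called in either direction), 0 where 1 CPM was required in all 4 libraries (4 had such a p; 0.86% of all genes were called lower), 1 with a replicate block (1.2% of all genes) and 1 with thinned controls (2.13%), and 0 to 36 leaving out 1 library. It was 3 or 4 under the other alternatives, including 2 added after seeing the data. With the replicate block, Cycs kept its call (adjusted p 0.0429) and Ndufaf4 (0.0591) and Sdhd (0.0877) lost it, and all-gene lower calls were 94 against 313; same-numbered libraries did not deviate together (r = -0.0299 over 7836 genes), and the labels do not say that a number marks a shared culture. Higher calls among members were 0 under every alternative run. The median log2 fold change ran from -1.46 to -0.070 leaving out 1 library, against -0.58 with all, and was -0.10 with thinned controls, -0.24 with 1 CPM required, -0.39 with background subtracted and -0.93 without a filter; the median of all tested genes ranged from -0.01 (background subtracted) to 3.56 (no filter), against 0.23.

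Some single genes changed sign, and the cause was not tested. With thinned controls the log2 fold change was 0.021 for Cox6a1, 0.23 for Ndufb9, 0.69 for Ndufaf8 and 0.27 for Cox7a2. With at least 1 CPM it was 0.13 for Ndufb9, 0.30 for Ndufaf8 and 0.10 for Cox7a2. With background subtracted it was 0.026 for Ndufb9 and 0.16 for Ndufaf8. Ndufaf8 also gave 0.019 (RLE), 0.059 (upper quartile), 0.035 (single-row genes) and 0.10 (protein-coding genes, and nuclear ones alone). Uqcrh gave -0.31 without a filter, -0.044 with limma-voom and -0.065 with the replicate block. Leaving out 1 library gave -0.65 to 0.56 for Uqcrh, -0.87 to 0.25 for Ndufb9, -0.93 to 0.48 for Ndufaf8, -7.49 to 0.69 for Cox4i1, -1.88 to 0.18 for Cox6b1, -1.0 to 1.2 for Cox7a1, -0.88 to 0.20 for Cox7a2 and -1.85 to 0.018 for Cyc1. Depth limits most members in spermidine replicate 1, where all 96 shared 5975 counts.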
